A study of Mus musculus with 118 samples.

Results

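The 6 genes described here encode proteins that join the 2 sides of a synapse and that anchor inhibitory receptors: the neurexins Nrxn2 and Nrxn3, the neuroligins Nlgn1, Nlgn2 and Nlgn3, and gephyrin (Gphn). They were picked by name, with earlier results of these data known, and all 6 were found among the 23998 gene symbols of the count table. Their levels were followed over somatostatin-positive (SOM+) interneurons of layer 4 (L4) and layer 5 (L5) of the mouse primary visual cortex (V1) and primary somatosensory cortex (S1). SOM+ cells are GABAergic interneurons that mainly contact the dendrites of other neurons. Each cell was recorded with a patch pipette, its cytosol was drawn into the pipette, and its RNA was sequenced (Patch-seq).

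All cells came from adult SOM-Cre/Ai9 mice, in which Cre under control of the somatostatin gene turns on the red reporter tdTomato for good, so that a labelled cell may express somatostatin or may have done so earlier. The labels name no treatment. Beside area and layer, the groups differed in recording day, taken from the date in each sample label. The dates were grouped here into 2 series, June to July and September. All L5 cells came from the first series, against 21 of 42 kept L4 cells in V1 and 16 of 34 in S1. Among the kept cells, day 1 held V1 L4 cells alone and day 9 held S1 L4 cells alone. Among the L4 cells sequenced, 42 of 44 in V1 and 34 of 39 in S1 were kept, and among the L5 cells 17 of 19 in V1 and 16 of 16 in S1. A kept cell had at least 1500 genes above 0, Slc17a7 counts at or below the sum of Gad1 and Gad2, and at least 1 Sst read. The labels name no animal, so the cells of a group could not be assigned to mice and each area and layer counted as 1 sample. Thus no p-value was computed, and every SD over cells describes the cells of that sample.

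Neurexins sit in the presynaptic membrane, where they organise the release site, and they bind partners across the cleft. Neuroligins are the best known of these partners and sit in the postsynaptic membrane. Nlgn1 is found mainly at excitatory synapses, Nlgn2 at inhibitory synapses, and Nlgn3 at synapses of both kinds. Gephyrin forms the scaffold under inhibitory synapses that holds glycine and GABA-A receptors in place, and Nlgn2 binds to it. An interneuron uses these genes on both sides: neurexins in its own axon terminals, and neuroligins and gephyrin where other cells contact it.

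In the GRCm38 mouse genome (RefSeq annotation), Nrxn2 lies on chromosome 19 from 6418756 to 6533217, Nrxn3 on chromosome 12 from 88722701 to 90334935, and Gphn on the same chromosome from 78217325 to 78684772. Nlgn1 lies on chromosome 3 from 25421808 to 26332866, Nlgn2 on chromosome 11 from 69823123 to 69837784, and Nlgn3 on chromosome X from 101299179 to 101321350. These genes differ widely in length, from 14.7 kb for Nlgn2 to 1612.2 kb for Nrxn3. Non-coding genes or pseudogenes overlap Nrxn2, Nrxn3, Nlgn1 and Gphn and have no row in the count table. The library kit does not mark strand, so reads from such an overlapping gene cannot be told apart from those of the member.

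The kept cells had between 97904 and 3295232 counts (median 1111833) and 6383 ± 1632 detected genes (SD over the kept cells). Sst, Gad1, Gad2, Slc32a1 and Lhx6, the markers of SOM+ interneurons, summed to 4200 to 6007 counts scaled to a total of 1000000 per library (CPM) over the pooled cells of a group. Markers of other cells were also read. Pooled over a group, the 6 oligodendrocyte markers summed to 267 (V1) and 1115 (S1) CPM in L4 and to 239 (V1) and 731 (S1) CPM in L5. Mbp made up most of this sum in every group. The 6 microglia markers were highest in V1 L5, at 422 CPM, and ranged from 104.9 to 198.1 CPM elsewhere. The 6 astrocyte markers ranged from 136.2 to 388 CPM, and the endothelial and oligodendrocyte precursor markers stayed at or below 1.71 CPM. Markers of parvalbumin (PV) interneurons summed to 11.5 (V1) and 41.8 (S1) CPM in L4 and to 1.14 (V1) and 11.9 (S1) CPM in L5. Pvalb made up all or nearly all of each PV sum, and Tac1 and Syt2 stayed at or below 0.052 CPM in every group. Markers of VIP interneurons summed to 132.2 (V1) and 18.8 (S1) CPM in L4 and to 20.9 (V1) and 0.310 (S1) CPM in L5. Calb2 made up nearly all of both V1 sums and of the S1 L4 sum, and Vip and Htr3a stayed at or below 0.310 CPM in every group. The paper assigned V1 L4 SOM+ cells preferentially to the type Sst Calb2 Pdlim, so Calb2 does not mark VIP interneurons alone here. Markers of excitatory neurons ranged from 7.497 to 15.8 CPM. Single cells carried some of these sums: leaving out 1 cell took the astrocyte sum to 257 CPM in V1 L4 and 87.6 CPM in V1 L5, the oligodendrocyte sum to 157.5 CPM in V1 L5, the microglia sum to 63.1 CPM in S1 L5 and the PV sum to 27.7 CPM in S1 L4. Most sums below 25 CPM also moved by over 1.5 times without 1 cell. Across the kept cells, which share their library chemistry but differ in depth, the correlation of a member with the summed astrocyte, oligodendrocyte or microglia markers lay between -0.19 (Nlgn2 with microglia) and 0.10 (Nlgn1 with oligodendrocyte), both as Pearson's r of log2(CPM + 1).

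Nrxn3 was the most abundant member and was read in all kept cells but 1. Its level was lowest at 521, median 1184 and highest at 3987 CPM in V1 L4, and 26.7, 1275 and 3422 CPM in S1 L4. For L5, the lowest, median and highest values were 0, 649 and 2482 CPM in V1 and 386, 789 and 2099 CPM in S1. All groups overlapped, and the medians of both L5 groups were below those of both L4 groups. On the log2(CPM + 1) scale the L4 means were 10.26 ± 0.77 for V1 (SD, n = 42) and 10.11 ± 1.23 for S1 (n = 34), and the L5 means were 8.74 ± 2.43 for V1 (n = 17) and 9.64 ± 0.77 for S1 (n = 16). The wide SD in V1 L5 came with a single cell that had no Nrxn3 read in 421469 counts, where 3 counts would be 7.12 CPM. That cell had 3910 CPM of Sst and 1978 detected genes, the fewest of the kept cells, and without it the V1 L5 mean was 9.28 ± 0.94 (n = 16).

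Nrxn2 was read in 88 cells (80.7%) and at a much lower level. Its L4 median was 28.3 CPM for V1 and 9.24 CPM for S1, its L5 median 29.7 and 20.5 CPM, and each group had cells at 0. The highest cell, in V1 L4, had 285 CPM. Mean log2(CPM + 1) was 3.66 ± 2.71, 3.18 ± 2.29, 4.84 ± 1.96 and 3.85 ± 2.15 for V1 and S1 in L4 and then V1 and S1 in L5 (SD over cells), so the spread over cells exceeded every difference between these means. Per length, Nrxn3 made up 91.6% to 97.7% of the summed mean RPKM (reads scaled to transcript length and library size) of Nrxn2 and Nrxn3 in the 4 groups. Nrxn3 had the higher RPKM of this pair in every kept cell but the V1 L5 cell without an Nrxn3 read.

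**Figure D1:**
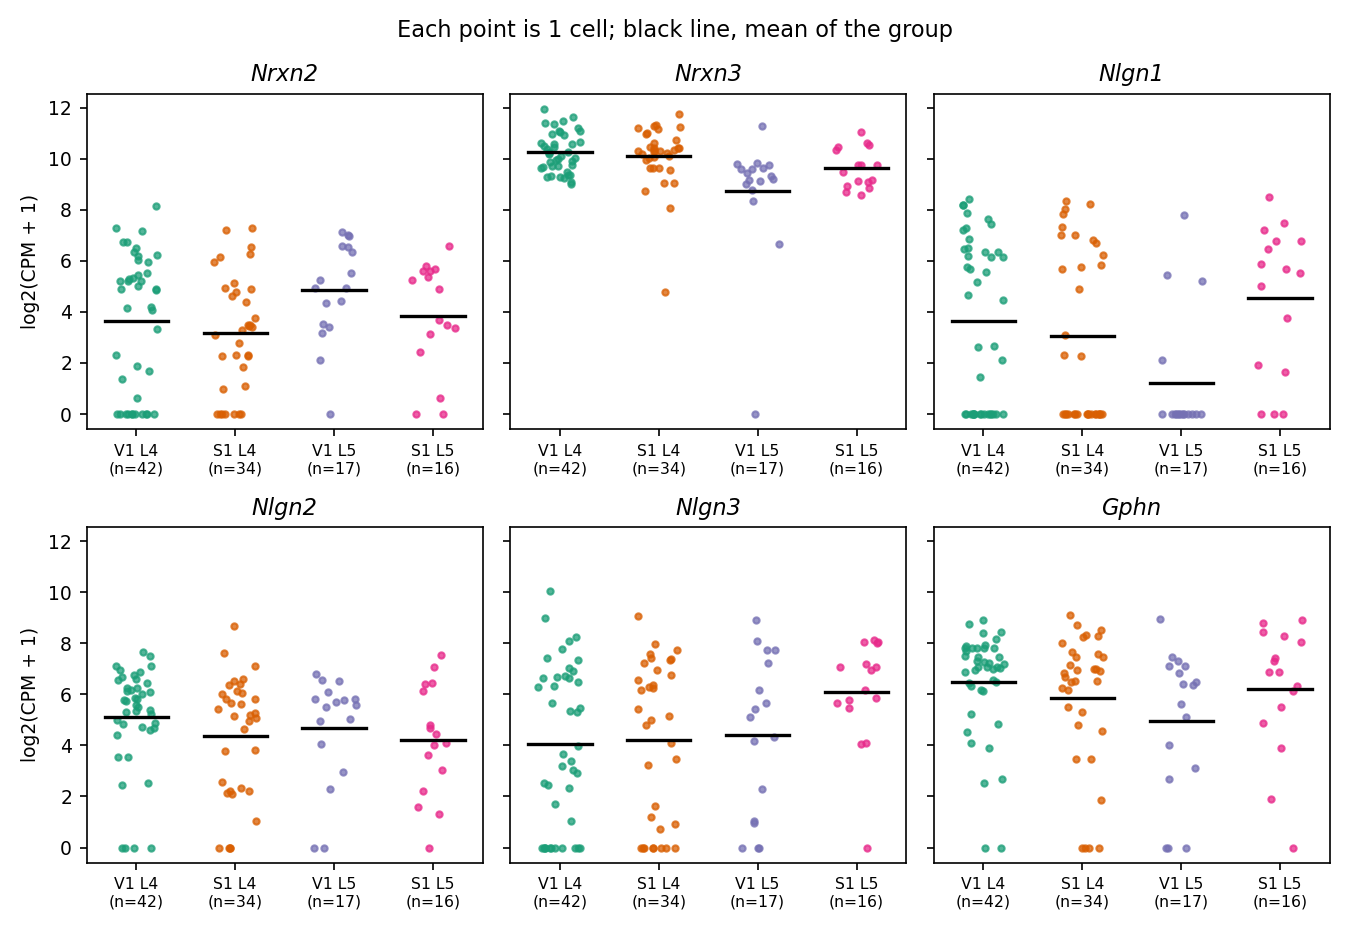
Level of the 6 genes in each kept cell as log2(CPM + 1), by area and layer. Points are cells and black lines are group means: Nrxn3 sits above 8 in all but 3 cells, whereas Nlgn1 splits into cells at 0 and cells mostly above 4, with 13 of 17 V1 L5 cells at 0.

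Among the neuroligins, Nlgn1 was the member that was read in the fewest cells, 60 (55.0%). The V1 L5 cells stood lowest: 4 of 17 had a read, the median was 0 and the highest cell was at 223 CPM. In S1 L5, 13 of 16 cells had a read, with a median of 47.6 and a highest value of 358 CPM. The L4 groups lay between, with 26 of 42 cells, a median of 22.8 and a highest value of 339 CPM in V1 L4, and 17 of 34 cells, a median of 1.91 and a highest value of 321 CPM in S1 L4. Among cells that had a read, the L4 medians were 75.6 (V1) and 102.1 (S1) CPM and the L5 medians 39.3 (V1) and 58.3 (S1) CPM. The ranges of all 4 groups overlapped.

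Nlgn2, the neuroligin of inhibitory synapses, was read in 98 cells (89.9%). Its medians were 49.8 (V1) and 34.8 (S1) CPM in L4 and 47.4 (V1) and 18.6 (S1) CPM in L5, and mean log2(CPM + 1) stayed between 4.21 and 5.10 with SDs of 2.05 to 2.396. The highest cell, at 410 CPM, was in S1 L4, and every group had at least 1 cell at 0. Nlgn3 was read in 86 cells (78.9%), and its highest cell, at 1060 CPM in V1 L4, lay above that of every other member except Nrxn3. Its medians were 13.2 (V1) and 32.8 (S1) CPM in L4 and 33.6 (V1) and 98.1 (S1) CPM in L5. The highest values of the other groups were 543 CPM for S1 L4, 477 for V1 L5 and 277 for S1 L5. The S1 L5 group thus had the highest median and the lowest maximum of Nlgn3, and all groups overlapped.

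Gphn was read in 99 cells (90.8%). The medians were 134.4 (V1) and 107.5 (S1) CPM in L4 and 81.5 (V1) and 117.004 (S1) CPM in L5, and the highest cells lay between 476 and 545 CPM in all groups. In mean log2(CPM + 1), L4 cells were at 6.47 ± 2.09 for V1 (SD, n = 42) and 5.85 ± 2.68 for S1 (n = 34), and L5 cells at 4.97 ± 2.86 for V1 (n = 17) and 6.23 ± 2.52 for S1 (n = 16). Each group held at least 1 cell at 0.

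Levels of different genes were compared in the deposited RPKM values, which account for transcript length. Over all kept cells the mean was 157.05 RPKM for Nrxn3, which ranked 333 among 17614 genes above 0, 45.1 RPKM for Gphn, 24.5 for Nlgn3, 11.9 for Nlgn1, 10.7 for Nlgn2 and 5.85 for Nrxn2. In mean log2(RPKM + 1), Nrxn3 came first and Gphn second in every group. Nrxn3 exceeded Gphn in 40 of 42 V1 L4 cells, 34 of 34 S1 L4 cells, 15 of 17 V1 L5 cells and 13 of 16 S1 L5 cells. The step from Gphn to the third gene was 1.78 ± 2.30 in V1 L4 (SD over 42 cells) and fell to 0.41 ± 2.55 in S1 L5 (16 cells), where Gphn was above Nlgn3 in 8 cells and below it in 8. Below Gphn, neighbours in the order differed by less than the SD of their difference over cells in every group, for example by 0.39 ± 2.95 between Nlgn2 and Nlgn3 in V1 L4. Nlgn1 came last in V1 L5 and ahead of Nlgn2 and Nrxn2 in S1 L5, whereas Nrxn2 came last in the other 3 groups.

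Of the mean RPKM summed over Nlgn1, Nlgn2 and Nlgn3, Nlgn3 made up 46.6% to 65.6% in the 4 groups. In V1 L4 the Nlgn3 share was 49.7%, or 41.7% without V1 L4 cell 42. Medians over cells gave another order in V1. The V1 L4 medians were 3.19 RPKM for Nlgn3, 9.98 for Nlgn2 and 4.38 for Nlgn1, and the V1 L5 medians 9.03 for Nlgn3 and 9.68 for Nlgn2. In both S1 groups Nlgn3 had the highest median. The share of Nlgn1 was 9.43% in V1 L5 and 26.5% to 28.9% in the other groups. In V1 L5 it rested on 1 cell, V1 L5 cell 4, without which it was 3.05%. Nlgn2 made up 16.2% in S1 L5 and at least 23.8% in the other groups. Counted by cell, Nlgn3 was the highest neuroligin in 16 of the 40 V1 L4 cells that had a neuroligin read, 18 of 34 S1 L4 cells, 8 of 16 V1 L5 cells and 11 of 16 S1 L5 cells. Nlgn2 was the highest in 15, 9, 6 and 1 cells of the same groups.

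**Figure D2:**
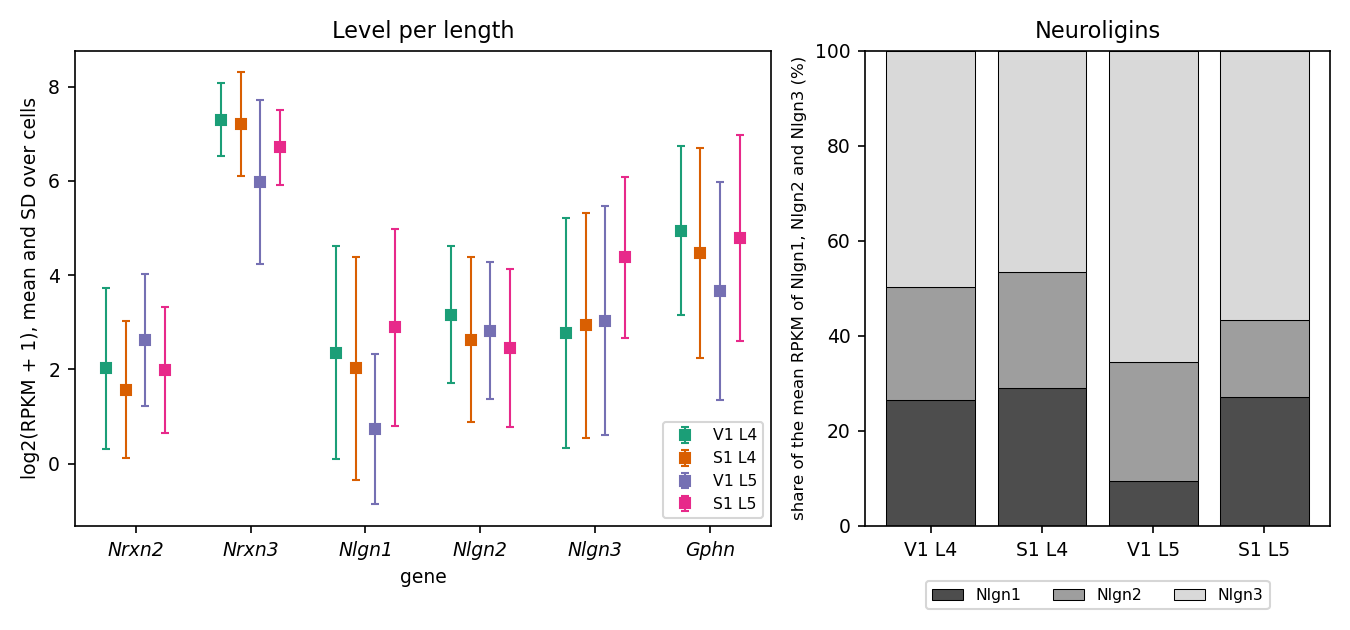
Left, mean log2(RPKM + 1) of each gene with the SD over cells, by group (V1 L4 n = 42, S1 L4 n = 34, V1 L5 n = 17, S1 L5 n = 16). Right, share of each neuroligin in the mean RPKM summed over Nlgn1, Nlgn2 and Nlgn3: Nlgn3 holds the largest share in every group, and Nlgn1 stands at 9.43% in V1 L5.

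Detection was compared again after each cell was thinned to 250000 reads, and the 3 cells below this depth, 2 from V1 L5 and 1 from S1 L5, were dropped. For Nlgn1 the share was 23.5% in V1 L5 (95% exact binomial interval, 6.81% to 49.9%) and 81.25% in S1 L5 (54.4% to 95.95%), and after thinning 3 of 15 and 11 of 15 cells had a read. The intervals describe the number of cells sampled, as if the cells of a group were independent, and do not compare the groups, each of which is 1 sample. In L4 the Nlgn1 shares were 61.9% (45.6% to 76.4%) in V1 and 17 of 34 cells (32.4% to 67.6%) in S1, and thinning changed neither. Nrxn2 lost the most cells, with a share over all cells of 80.7% before and 71.7% after thinning.

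**Figure D3:**
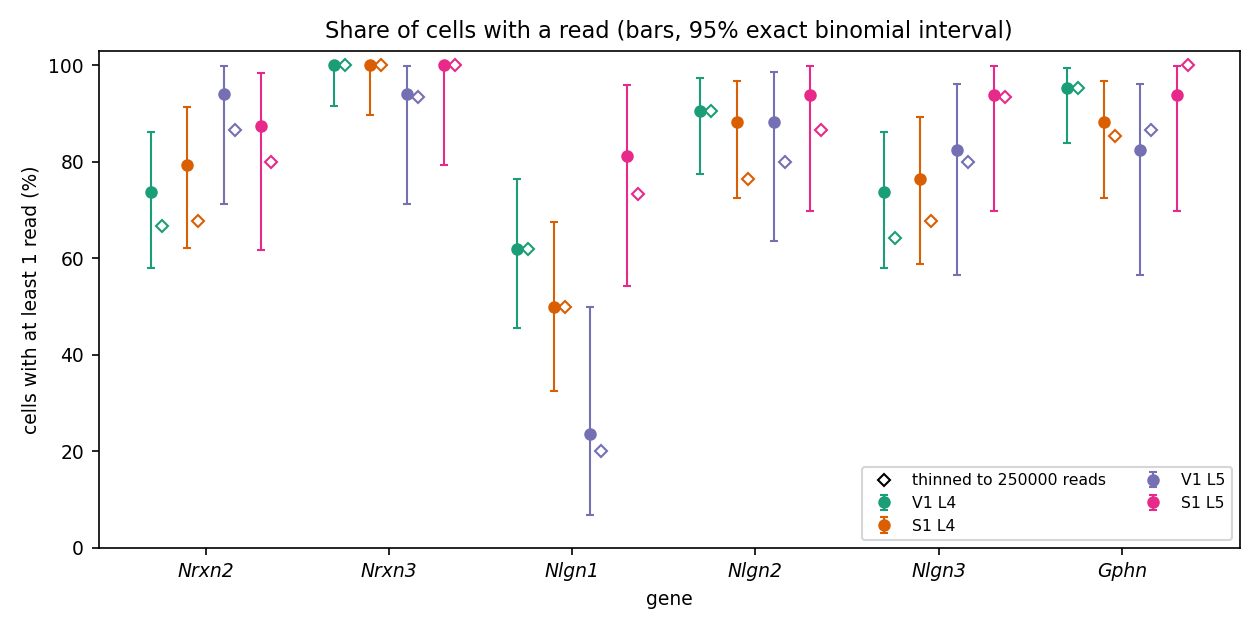
Share of cells with at least 1 read of each gene by group, with 95% exact binomial intervals over its cells. Open diamonds give the share after thinning to 250000 reads: for Nlgn1, V1 L5 (23.5%) lies below S1 L5 (81.25%), while for Nrxn3 all groups lie at or above 93.3%.

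Most cells had reads from nearly the whole set. All 6 genes were read in 37 cells, 5 genes in 42, 4 in 20, 3 in 7 and 2 in 3 cells. This count followed the number of detected genes, whose median was 3556 in cells with 2 members and 7802 in cells with 6. All 6 genes were read in 10 of 16 S1 L5 cells but in 1 of 17 V1 L5 cells, where 11 cells had reads of 5 members. Nlgn1 was read in 13 of 16 S1 L5 and 4 of 17 V1 L5 cells, which limited how many cells could have all 6. Detected genes numbered 6952 ± 1624 in S1 L5 and 6272 ± 1799 in V1 L5 (SD over cells), and the part of depth in this count was not tested.

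From cell to cell, the members varied largely apart from each other. Over the 15 pairs, Pearson's r of log2(CPM + 1) across the kept cells ranged from -0.15 (Nrxn2 and Nlgn1) to 0.17 (Nrxn3 and Gphn). Gphn and Nlgn2, which bind each other as proteins, gave 0.12, and 92 cells had reads of both. Cells in such a correlation share batches and differ in depth: r with the number of detected genes was 0.11 for Nrxn3 and 0.32 for Nlgn3, with the others between.

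Of 9992 genes with at least 32 counts in at least 10 kept cells, those most like Nrxn3 were Srrm2, Gria2 and Meg3, each with r = 0.69 over the kept cells. These values rested in part on the V1 L5 cell without an Nrxn3 read, in which Srrm2 and Gria2 were also at 0. Without it r was 0.44, 0.48 and 0.51, an alternative chosen after the values were seen. The genes most like Nrxn2 were Rab10, Pitpnm1 and Vsnl1 (r = 0.45, 0.40 and 0.39), those most like Nlgn1 were Opcml, Rwdd1 and Kcnip2 (0.43, 0.39 and 0.39), and those most like Nlgn2 were Dab2ip, Dld and Rad23b (0.47, 0.43 and 0.43). Nlgn3 was most like Faim2, Fh1 and 1500011B03Rik (0.44, 0.42 and 0.42) and Gphn most like Sec24a, Erc2 and Ogdh (0.42, 0.42 and 0.41). Over all those genes the median r lay between 0.035 for Nrxn3 and 0.085 for Nlgn3.

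Area and layer were then compared as differences of mean log2(CPM + 1). A difference of at least 1 on this scale was called past 2-fold, a label of size and not a test. The pseudocount of 1 shrinks changes between low values, but a mean on this scale also depends on how many cells have a read. For genes with few reads the difference can therefore exceed the change among cells with a read. For Nlgn1 between areas in L5 it was 3.33, with a read in 13 of 16 S1 and 4 of 17 V1 cells. Among those cells the medians were 58.3 (S1) and 39.3 (V1) CPM. The dates in the labels were taken as recording days, 9 in 2 series, and each difference was computed again within every day that held at least 2 cells of both groups. The SD over these days served as its spread, although days may share a mouse. The 4 comparisons share groups of cells, so they are not independent. All 6 members passed the filter on low counts, 32 counts in at least 10 of the compared cells, in each comparison.

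In L4, no member differed by 2-fold between S1 and V1 in means over all cells. With values as S1 minus V1, Nlgn2 differed by -0.74 (4.36 against 5.10, SD over 5 days 2.34), Gphn by -0.62 (5.85 against 6.47, SD 1.04) and Nlgn1 by -0.61 (3.04 against 3.65, SD 2.75). Nlgn2 and Gphn were lower in S1 on 4 of 5 days. Nrxn2 differed by -0.49, Nrxn3 by -0.15 and Nlgn3 by 0.16, with SDs of 1.54 to 1.56. Every difference was smaller than its SD over days. Leaving out recording day 7 took Nlgn1 to -1.26 and leaving out day 8 took Nlgn2 to -1.01, past 2-fold. With medians over cells in place of means, Nrxn2 was at -1.52, Nlgn1 at -3.44 and Nlgn3 at 1.26. In the first series alone Nlgn3 was at 1.02 and Gphn at -1.05, and in the second alone at -0.61 and -0.22. The counts that follow use means over all cells. Past 2-fold were 0 of 6 members, against 15.8% of the 9201 genes tested, and 0 of 6 were past 2-fold with that sign on all 5 days, against 3.20% of genes. The median difference of the members was -0.55, against 0.015 over all genes. Pooled oligodendrocyte markers, 1115 CPM for S1 and 267 CPM for V1, moved with area in these L4 cells. The PV sum, nearly all Pvalb, moved as well, at 41.8 CPM for S1 and 11.5 CPM for V1. The VIP sum, nearly all Calb2, was 18.8 CPM for S1 and 132.2 CPM for V1. The part of these sums in the differences was not tested.

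In L5 the area difference was large for Nlgn1. Its mean log2(CPM + 1) was 4.54 ± 2.91 in S1 (SD, n = 16) and 1.21 ± 2.47 in V1 (n = 17), a difference of 3.33 that exceeded in size those of 99.8% of the 6402 genes tested. Pooled over cells, Nlgn1 stood at 59.5 CPM in S1 (95% Poisson interval, 56.2 to 63.1) and 15.97 CPM in V1 (14.2 to 17.9). Reads were not tagged by molecule, so these intervals cover counting error alone, and the cells spread far wider, from 0 to 358 CPM in S1 and from 0 to 223 CPM in V1. Most of the V1 reads came from V1 L5 cell 4, and without it the pooled level there was 3.84 CPM, while leaving out any 1 cell in S1 gave 53.5 to 65.6 CPM. On recording day 3 the order was turned, with 1 of 3 S1 cells and 2 of 5 V1 cells having a read and a difference of -0.45. On day 4 a read was found in 4 of 5 S1 and 1 of 3 V1 cells, on day 5 in 5 of 5 and 0 of 4, and on day 6 in 3 of 3 and 1 of 5, with differences of 3.47, 5.63 and 4.63. The SD over the 4 days was 2.66, smaller than the difference. Leaving out each day gave 2.46 to 4.46, and leaving out any 1 of the 33 cells gave 3.07 to 3.74. Pooled oligodendrocyte markers (731 against 239 CPM) and microglia markers (104.9 against 422 CPM) also differed between S1 and V1 in L5. So did the PV sum, nearly all Pvalb (11.9 against 1.14 CPM), and the VIP sum (0.310 against 20.9 CPM). The V1 VIP sum was nearly all Calb2. The part of these sums in the difference was not tested. Over all kept cells, r of Nlgn1 with these sums was 0.10 (oligodendrocyte), 0.055 (microglia), 0.067 (PV) and 0.165 (VIP).

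**Figure D4:**
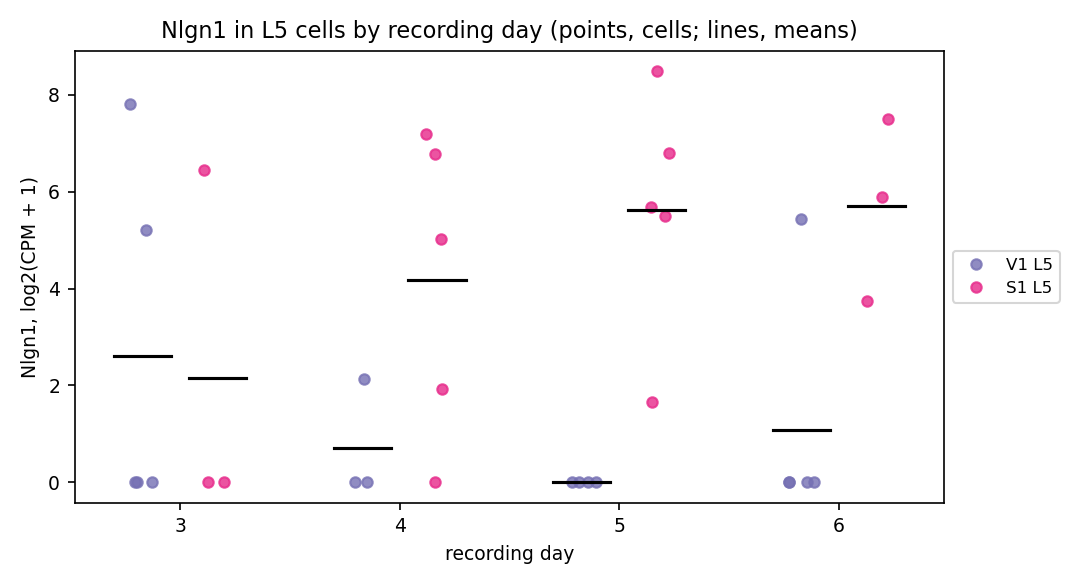
Nlgn1 in each L5 cell as log2(CPM + 1), by recording day, with the mean of each area on each day. S1 cells have the higher mean on days 4, 5 and 6, and on day 3 the means are 2.15 in S1 and 2.61 in V1.

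Nlgn3 and Gphn also passed 2-fold between areas in L5, and neither exceeded its spread over days. Nlgn3 was 1.70 higher in S1 (6.10 against 4.40, SD over days 2.58), with differences of 4.03, 4.30, 0.33 and -0.78 on days 3 to 6. Gphn was 1.25 higher (6.23 against 4.97, SD 1.86), with differences of 1.91, 1.16, -1.31 and 3.08. Without day 3 or day 4 the Nlgn3 difference was 0.83 or 0.96, and without day 6 that of Gphn was 0.43. Leaving out any 1 of 3 cells also brought Gphn below 2-fold, to 0.94 without the shallowest V1 cell, which had no Gphn read in 97904 counts. Nrxn3 was 0.90 higher in S1, or 0.35 without the V1 cell that had no Nrxn3 read. Nrxn2 differed by -0.99 and Nlgn2 by -0.47, each lower in S1 on 3 of 4 days. Nrxn2 lay at the edge of 2-fold, since leaving out any 1 of 15 cells took it past. Leaving out a day took Nrxn2 past 2-fold for day 3 (-1.24) or day 4 (-1.34), Nlgn2 for day 3 (-1.24) and Nrxn3 for day 6 (1.51). Thus 3 of 6 members were past 2-fold, against 33.6% of genes, and 0 of 6 with that sign on every day, against 12.7% of genes. The median difference was 1.08, against 0.24 over all genes.

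**Figure D5:**
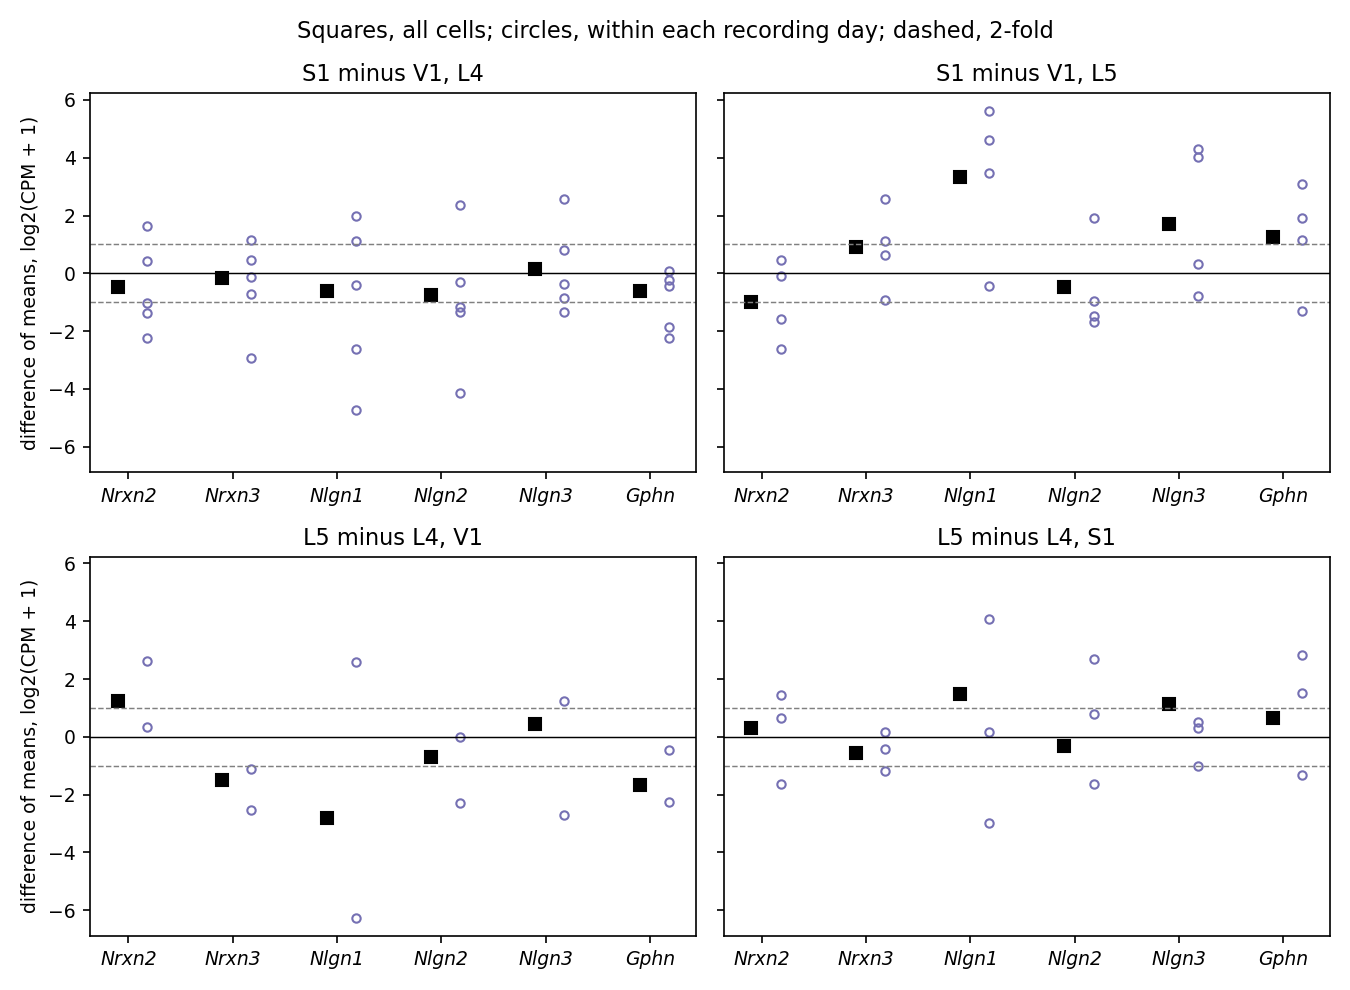
Difference of mean log2(CPM + 1) for each gene in the 4 comparisons. Squares use all cells, open circles the cells of 1 recording day, and dashed lines mark 2-fold: Nlgn1 in L5 lies at 3.33, with 3 of 4 days above the upper dashed line.

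Layers were compared within the first recording series, since it held all L5 cells. In V1, 17 L5 cells were set against 21 L4 cells, and 2 recording days, 3 and 5, had at least 2 cells of each. The V1 L4 cells numbered only 2 on day 3 and 3 on day 5. With values as L5 minus L4, Nrxn3 differed by -1.49 (8.74 against 10.23), and by -2.53 and -1.12 on these days. The L5 cell that had no Nrxn3 read was recorded on day 3 and is part of the value of that day. Without this cell the difference over all cells was -0.95. Gphn differed by -1.65 (4.97 against 6.63), and by -2.26 and -0.46 on these days. Nrxn2 was higher in L5 by 1.23 (4.84 against 3.61), and by 2.63 and 0.34 on these days. Its pooled level was 52.1 CPM in V1 L5 and 44.4 CPM in the V1 L4 cells of both series.

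Nlgn1 differed by -2.81 between layers in V1 (1.21 against 4.02), but the days opposed each other, with 2.61 on day 3 and -6.29 on day 5. Nlgn2 (-0.71) and Nlgn3 (0.44) did not reach 2-fold. The 4 of 6 members past 2-fold stood against 37.9% of the 6696 genes tested, and the 3 that kept their sign on both days, Nrxn2, Nrxn3 and Gphn, against 18.5%. Without day 6 Gphn differed by -0.69, and without day 1 or day 3 Nrxn2 differed by 0.96 or 0.92. With medians over cells in place of means, none of these 3 reached 2-fold: Nrxn2 was at 0.74, Nrxn3 at -0.86 and Gphn at -0.72. Of these 3, Nrxn3 and Gphn exceeded their SDs over 2 days (0.997 and 1.27), whereas Nrxn2 did not (1.62). The median difference of the members was -1.10, against 0.15 over all genes.

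In S1, 16 L5 cells were set against 16 L4 cells over 3 days. Nlgn1 was 1.47 higher in L5 (4.54 against 3.07, SD over days 3.54), with days at 0.16, -3.00 and 4.08. Nlgn3 was 1.12 higher in L5 (6.10 against 4.98), yet its differences within days, 0.53, 0.29 and -1.01, averaged -0.065. Without day 2 the Nlgn3 difference was 0.43 and without day 6 it was 0.71, and leaving out any 1 of 7 cells brought it below 2-fold, to 0.79 at the lowest. The Nlgn1 difference was 0.76 without day 5 and 0.99 without day 6. Gphn was 0.65 and Nrxn2 0.31 higher in L5, and Nrxn3 differed by -0.57 and Nlgn2 by -0.31. Thus 2 of 6 members were past 2-fold, against 33.1% of the 6492 genes tested, and 0 of 6 with that sign on all 3 days, against 15.1%. The median difference was 0.48, against 0.27 over all genes. The layer differences of Nlgn1 had opposite signs in V1 and S1, and within days each comparison held days of both signs.

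Other genes of the pathway were described by 61 genes in 5 lists: 22 ligands and modulators of neurexins, 15 genes of the inhibitory postsynaptic scaffold, 13 of the excitatory scaffold, 6 presynaptic neurexin partners and 5 regulators of neurexin splicing and shedding. Between areas in L4, 47 passed the filter on low counts, and 5 were higher and 6 lower in S1 by at least 2-fold (23.4%, against 15.8% of all genes tested). Among them 3 kept their sign on all 5 days (6.38% of the 47, against 3.20% of all genes). All 3 were ligands or modulators: Clstn2 (2.397 higher in S1) and Clstn3 (1.06 higher), both calsyntenins, which are postsynaptic adhesion proteins, and the latrophilin receptor gene Lphn1, now named Adgrl1 (-1.54). Median differences of the lists ranged from -0.35 (ligands and modulators) to 0.59 (presynaptic partners).

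Between areas in L5, 37 genes passed the filter, 3 were higher and 5 lower in S1 by 2-fold (21.6%, against 33.6% of all genes), and 5 kept their sign on all 4 days (13.5%, against 12.7% of all genes). These 5 were all lower in S1. Adam10, a protease that sheds neurexins and neuroligins from the membrane, differed by -2.27 (SD over days 1.17), and the secreted neurexin ligand gene Nxph1 by -1.41 (SD 0.57). The postsynaptic ligand gene Lrrtm4 differed by -1.18 and the presynaptic adaptor gene Apba2 by -1.16.

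Between layers in V1, 40 genes passed, 7 were higher and 8 lower in L5 by 2-fold (37.5%, against 37.9% of all genes), and 13 kept their sign on both days (32.5%, against 18.5%). Higher in L5 were Nxph1 (2.19), the dynein light chain gene Dynll2 (2.03), the neurexin-binding scaffold gene Cask (1.80), the splicing regulator gene Khdrbs3 (1.69), the GABA-A receptor partner gene Lhfpl4 (1.44) and Adam10 (1.07). Lower in L5 were the secreted ligand gene Cbln4 (-3.69), Lrrtm3 (-2.61), Lrrtm2 (-2.17), Mdga2 (-1.43), whose protein binds neuroligins and blocks their contact with neurexins, Lphn1 (-1.28), Slitrk3 (-1.24) and the excitatory scaffold gene Shank2 (-1.16). The differences of Dynll2, Lrrtm3 and Lrrtm2 were smaller than their SDs over the days (2.35, 3.09 and 4.62), and those of the other named genes exceeded theirs. These days held only 2 and 3 V1 L4 cells. Between layers in S1, 38 genes passed, 5 were higher and 6 lower in L5 by 2-fold (28.9%, against 33.1% of all genes), and 7 kept their sign on all 3 days (18.4%, against 15.1%). Dag1 (1.81), which encodes dystroglycan, Magi1 (1.71) and Khdrbs3 (1.65) were higher in L5, and Cbln4 (-3.09), Mdga2 (-1.59), Clstn2 (-1.53) and Nxph1 (-1.24) were lower. In S1 the differences of Mdga2 and Clstn2 were smaller than their SDs over days (2.15 and 1.86), and those of the other named genes exceeded theirs. Cbln4 and Mdga2 were lower and Khdrbs3 higher in L5 in both areas, whereas Nxph1 was higher in V1 L5 and lower in S1 L5. For Nxph1 the mean log2(CPM + 1) was 9.37 in V1 L5, 7.95 in S1 L5, and 7.18 and 9.19 in the L4 cells of the first series in V1 and S1.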

How the data were processed

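Patch-seq libraries of single cells, 1 per sample, were analysed. Per the labels and the study's methods, the authors demultiplexed the reads with bcl2fastq (2.20) and aligned them with STAR (2.4.2a) to mm10. They deposited 1 table of read counts per gene, not normalized, and 1 table of RPKM values from rpkmforgenes with RefSeq gene models. Both hold 24490 entries, and those sharing a symbol were summed (23998 symbols). Counts were used for every level and difference as log2(CPM + 1), with a pseudocount of 1 and the sum of all counts of a cell as its total. RPKM served to compare different genes. Another deposited table of cell labels was not used beyond the labels themselves.

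A gene was tested in a comparison where 10 or more of its cells had 32 or more counts. For shares, 95% Clopper-Pearson intervals are given, and for pooled counts Poisson intervals, the former over cells and the latter for counting error alone. Pooled values and shares were recomputed with each cell left out, an alternative chosen after seeing the data. Thinning drew 250000 reads without replacement (seed 1). No significance test was run, since every area and layer forms 1 sample. The scripts were tested on simulated data. Python 3.11.15, pandas 2.3.3, NumPy 2.4.6, SciPy 1.17.1, matplotlib 3.10.9, R 4.3.3 and edgeR 4.0.16 (TMM factors, an alternative) were used. The text names the 6 members, the 3 genes most like each by Pearson's r, and genes of the 5 lists past 2-fold with that sign on every recording day in at least 1 comparison. The values of 1 gene under this rule are not reported here. The members, lists and this rule were chosen with earlier results of these data known. Recording with a pipette can carry RNA of nearby cells, and cells with little cDNA were not sequenced. Sequences of the encoded proteins were not used here.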

Additional observations from a re-analysis of the deposited data

Results flagged for a closer look

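In S1 L4, 4 cells lacked an Sst read and so entered no comparison. In them, all 6 genes were read above the limit that a count of 0 allows, 0.545 CPM over the pooled cells. Pooled over these cells, Nrxn3 stood at 570 CPM (95% Poisson interval, 550 to 590), Nlgn1 at 184.7 CPM (173.5 to 196.4), Nlgn2 at 80.3 CPM (72.9 to 88.1), Gphn at 40.5 CPM (35.4 to 46.2), Nlgn3 at 26.3 CPM (22.2 to 30.98) and Nrxn2 at 24.3 CPM (20.4 to 28.8). These intervals cover counting error alone, and single cells moved the pooled values further: leaving out 1 of the 4 cells gave 37.1 to 165.8 CPM for Nlgn2, 21.8 to 63.8 CPM for Gphn, 14.6 to 55.4 CPM for Nlgn3, 10.5 to 34.8 CPM for Nrxn2, 133.7 to 209 CPM for Nlgn1 and 424 to 606 CPM for Nrxn3, an alternative chosen after seeing the data. The lowest Nrxn2 value was without S1 L4 cell 4, the lowest Nlgn2 and Gphn values without cell 11 and the lowest Nlgn3 value without cell 18. The highest values of these 4 genes were all without cell 13. Nlgn1 was read in 4 of 4 cells, from 96.1 to 231 CPM, and its mean log2(CPM + 1) was 7.16, against 3.04 in the 34 kept S1 L4 cells. Nrxn3 ranged from 215 to 702 CPM, with a mean log2(CPM + 1) of 8.71 against 10.11 in the kept cells. All 4 cells had Pvalb reads, from 29 to 2662 counts, and were recorded on days 2, 3, 4 and 5. Pvalb encodes parvalbumin, a marker of fast-spiking interneurons, and the SOM-Cre line is known to label some of those cells. The paper excluded only 3 cells as fast-spiking, each assigned to a parvalbumin type and with 0 somatostatin reads. Which 3 of the 4 cells those were was not determined here. The difference between the 4 cells and the kept cells was not tested.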

How the results depend on the processing

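Among the counts, shares and medians recomputed under the alternatives, 18 moved and the others stayed within their spread or within 1.5 times. A reversal could be recorded only for a median of at least 1 in size. This held for the area comparison in L5 and the layer comparison in V1, and 0 reversals were found there. Between areas in L4, the members past 2-fold numbered 0, but 3 with medians over cells and 2 in the first recording series alone, and 0 to 1 when each recording day was left out. Between areas in L5 the 3 became 5 with a pseudocount of 0.1 and 1 with a pseudocount of 10. Between layers in V1 the 4 became 2, Nlgn1 and Nlgn3 (1.45), with medians over cells, where Nrxn2 was at 0.74, Nrxn3 at -0.86 and Gphn at -0.72. Nrxn2 was also below 2-fold with the deposited RPKM values (0.67) and with a pseudocount of 10 (0.54), and Nrxn3 was at -0.77 among cells with at least 3000 detected genes. Between layers in S1 the 2 became 0 with the deposited RPKM values or a pseudocount of 10, 1 with the mean of differences within days, 1 with the cells without an Sst read kept, 0 to 2 when each day was left out, and 1 to 3 when each cell was left out, an alternative chosen after seeing the data. The 1 member whose called difference was reversed was Nlgn3 between layers in S1, at -0.065 as the mean of differences within days. The causes of these moves were not tested. With no filter on low counts, the shares of genes past 2-fold were 8.90%, 21.1%, 22.3% and 21.2% in the 4 comparisons in the order above, because more genes near 0 were included. Nlgn1 between areas in L5 stayed past 2-fold under all 14 alternatives set for it, from 1.66 to 5.60. No paired analysis was possible because the replicate numbers only name cells and pair none, and the differences within recording days given above were the nearest to a blocked value. Each group is 1 sample whose cells could not be assigned to mice, the L5 groups hold 17 and 16 cells, and genes with few reads per cell, above all Nlgn1, are limited by detection.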
